A study of Mus musculus with 12 samples.

Results

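The chemokine genes of sorted mouse epidermal stem cells are described here: every gene whose symbol on the array is Ccl or Cxcl with a number, together with Cx3cl1 and Xcl1. Probe sets that carry exactly 1 gene symbol were searched, and 39 probe sets of 34 chemokine genes were found among 21789 probe sets of 19938 genes. Another 7 probe sets hold a chemokine symbol among several symbols, of the Ccl21 and Ccl27 families, and no gene was named from them. Expression was measured on 12 Affymetrix whole-transcript arrays, 3 in each of 4 groups, and each value is a log2 intensity, so a difference of 1 is a 2-fold change.

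The bulge set compared clock-positive with clock-negative bulge cells from the dorsal skin of mice 18 to 19 days old, sorted as alpha6-bright and CD34+ and separated by a Venus reporter, with about 20 mice pooled per array. The labels of the clock-negative arrays name Venus-negative cells but also state the Venus-high gate, and the groups here follow the titles. The epidermis set compared basal interfollicular epidermis (IFE) cells of wild-type mice with cells labelled Bmal1 KO, all from mice 1 year old, with 5 mice pooled per array. Neither the cells in which Bmal1 was deleted nor the deleted part of the gene is given in the sources used here, and none of the groups was treated. The comparisons ask how these genes differ with the state of the clock among bulge cells, and with the loss of a core clock gene in the epidermis.

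Chemokines are small secreted or membrane-bound proteins that draw leukocytes along a gradient through G-protein-coupled receptors. In skin, keratinocytes can make several of them, some all the time and some after interferon, interleukin 17 or NF-kB signals, and others come mainly from T cells, myeloid cells, fibroblasts or endothelium. Bmal1 is the core clock activator, which binds E-boxes with its partner Clock and drives the Per and Nr1d genes, whose products repress through E-boxes and RORE elements.

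The defining markers of the sorted cells were present in both sets. The mean log2 level of 8 basal keratinocyte markers was between 11.52 and 11.68 in the bulge arrays and between 12.85 and 12.94 in the epidermis arrays, and the bulge markers Cd34 and Lgr5 were dim in the epidermis arrays. Per1 rose by 0.51 ± 0.07 (SE) in clock-positive cells. Of 16 core clock genes 9 were higher and 0 lower there at an adjusted p under 0.05 with limma, beside 45.2% and 18.3% of all genes tested. These counts were 14 and 0 after median centring, 5 and 2 after quantile normalization and 4 and 2 after cyclic loess. The probe set of Bmal1 itself (Arntl) read 9.85, 9.60 and 9.55 in the KO arrays against 9.27, 9.47 and 9.34 in wild type, so its own signal was not lower in the arrays labelled KO, and whether its probes lie in the deleted part was not given. The clock targets Nr1d1 (-3.98 ± 0.12) and Per3 (-2.69 ± 0.11) fell in the KO arrays and Cry1 rose (1.80 ± 0.10). Among bulge cells Nr1d1 (0.08 ± 0.06), Per3 (-0.06 ± 0.06) and Cry1 (0.05 ± 0.06) did not pass an adjusted p under 0.05. Immune markers differed among the wild-type arrays: the mean level of 9 T cell markers was 7.64, 8.51 and 8.74 in wild type and 7.35 to 7.42 in KO, and the 12 Langerhans and other myeloid markers read 7.38, 8.10 and 8.36 against 7.28 to 7.42. Medians over all probe sets of the clock-positive arrays (6.82 to 6.84) lay below those of the clock-negative arrays (6.94 to 7.01), while the epidermis medians lay between 7.75 and 7.80.

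Genes among the lowest 30% by mean level over the 6 arrays of a comparison were called dim and not tested. In the bulge set 18 of 34 chemokine genes passed this filter, at a mean of at least 6.27, and 16 were dim; in the epidermis set 21 passed, at a mean of at least 6.83, and 13 were dim. Of the 16 chemokine genes on a list of those most often reported as made by keratinocytes, 7 passed in the bulge set and 9 in the epidermis set. Of the 18 others, 11 and 12 passed. The neutrophil attractants Cxcl2, Cxcl3 and Cxcl5, on the keratinocyte list, were dim in both sets, and so were Ccl8, Ccl17, Ccl22 and Cxcl11. Nearest to the limit in the epidermis set, Ccl6 lay just under it and Ccl9 just above it.

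The start regions of 4 chemokine genes are shown because the clock acts on DNA motifs near gene starts. Ccl20 is among them although its difference in the epidermis did not pass an adjusted p under 0.05 with limma (0.301). The RefSeq table of assembly GRCm38.p6 held such a window, 250 bases before to 50 bases after the start, for 23 of the 34 genes. Capitals mark matches, on either strand, to the E-box CACGTG, the D-box TTATGNAA, the RORE core AGGTCA, the TATA box TATAAA and the NF-kB motif. The sequences are given 5′ to 3′ along the gene's strand: Ccl20 at chr1:83116516-83116815 (plus strand), Cxcl14 at chr13:56296502-56296801 (minus), Cxcl12 at chr6:117168285-117168584 (plus) and Xcl1 at chr1:164935473-164935772 (minus).
Ccl20: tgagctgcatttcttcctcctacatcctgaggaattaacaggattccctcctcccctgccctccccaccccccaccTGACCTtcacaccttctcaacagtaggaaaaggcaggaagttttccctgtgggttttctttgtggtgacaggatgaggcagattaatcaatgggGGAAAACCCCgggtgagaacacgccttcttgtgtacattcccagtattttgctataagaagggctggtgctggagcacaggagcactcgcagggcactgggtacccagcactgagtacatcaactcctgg
Cxcl14: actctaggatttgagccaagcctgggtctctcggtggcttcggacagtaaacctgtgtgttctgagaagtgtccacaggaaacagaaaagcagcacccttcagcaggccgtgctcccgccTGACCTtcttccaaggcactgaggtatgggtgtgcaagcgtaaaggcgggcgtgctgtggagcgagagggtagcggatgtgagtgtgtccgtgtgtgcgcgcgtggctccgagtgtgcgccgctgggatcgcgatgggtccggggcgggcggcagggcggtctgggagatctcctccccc
Cxcl12: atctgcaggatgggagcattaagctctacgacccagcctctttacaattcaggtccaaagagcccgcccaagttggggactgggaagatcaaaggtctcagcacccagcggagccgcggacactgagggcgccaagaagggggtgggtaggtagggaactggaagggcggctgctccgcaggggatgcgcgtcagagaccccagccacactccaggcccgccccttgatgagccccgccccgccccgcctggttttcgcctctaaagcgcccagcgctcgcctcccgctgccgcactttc
Xcl1: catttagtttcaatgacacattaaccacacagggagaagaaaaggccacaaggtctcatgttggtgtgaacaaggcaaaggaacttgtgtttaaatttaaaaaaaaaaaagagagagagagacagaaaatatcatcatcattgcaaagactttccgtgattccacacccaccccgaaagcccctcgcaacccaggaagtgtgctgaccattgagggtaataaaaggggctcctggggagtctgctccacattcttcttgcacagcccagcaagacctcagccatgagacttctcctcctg
The Ccl20 window held an RORE core whose first base lies at -174 from the start, read on the opposite strand, and an NF-kB motif at -80. The Cxcl14 window held an RORE core at -130, also on the opposite strand. Neither the Cxcl12 nor the Xcl1 window held any of the 5 motifs. Over the 23 genes, 9 windows held an RORE core (39.1%, against 16.3% of all 32851 windows), 6 an NF-kB motif (26.1%, against 4.51%) and 9 a TATA box (39.1%, against 13.6%). An E-box was found in 1 window, that of Cxcl3 (4.35%, against 7.15%), and a D-box in none, against 3.38% of all windows. The 6 genes with an NF-kB motif were Ccl20, Ccl9, Cxcl1, Cxcl2, Cxcl3 and Cxcl10. A match describes the letters in a window and says nothing of binding.

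In the epidermis, none of the 21 chemokine genes tested passed an adjusted p under 0.05 with limma, where 0.193% of all 13957 genes tested did (27 genes). At an unadjusted p under 0.05 there were 5 chemokine genes, Cxcl14, Xcl1, Ccl20, Cxcl9 and Cxcl10, against 7.96% of all genes. Cxcl14 was nearest to the threshold, at 1.72-fold above wild type in the KO arrays. The groups did not overlap in 4 genes that were higher in KO (Ccl20, Cxcl9, Cxcl10 and Cxcl14; 4.11% of all genes) and in 2 that were lower (Ccl25 and Xcl1; 8.55% of all genes). With 3 arrays against 3 the exact two-sided permutation test of a single gene cannot give a p below 0.1, and these 6 genes reached it. The median log2 change was 0.02 over the 21 chemokine genes and -0.01 over all genes tested, and it was 0.25 over the 9 on the keratinocyte list and -0.0023 over the 12 others.

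Among bulge cells, 14 of the 18 chemokine genes tested passed an adjusted p under 0.05, 3 higher and 11 lower in clock-positive cells. Of all 13956 genes tested, 63.5% passed, 45.2% higher and 18.3% lower. Cxcl12, the stromal ligand of Cxcr4, rose 2.26-fold, Cxcl14 1.49-fold and Cxcl16 1.16-fold in clock-positive cells, and Xcl1, a T cell ligand, was 1.99-fold lower. The other 10 that fell, by 0.17 to 0.49 on the log2 scale, were Ccl1, Ccl5, Ccl7, Ccl11, Ccl19, Ccl20, Ccl26, Cxcl1, Cxcl9 and Cxcl17. In 3 genes that were higher and 10 that were lower the groups did not overlap, against 50.1% and 19.1% of all genes. The median change was -0.26 over the 18 chemokine genes and 0.15 over all genes tested.

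The direction of a change in the bulge set moved with the level of the gene. Genes with a mean log2 level between 6 and 7 had a median change of -0.21, and 78.3% of these 4249 genes lay below 0. Genes between 7 and 8 had a median of 0.11 and those between 8 and 9 a median of 0.25. Chemokine genes were mostly at the low levels: 16 of the 34 lay between 6 and 7, with a median of -0.32. The 16 dim chemokine genes had a median change of -0.30, beside -0.21 over all 5981 dim genes. Rescaling moved the median of all genes by 0.14 (median centring), -0.08 (quantile normalization) or -0.11 (cyclic loess), and 6 of the 14 calls held under all 3: Cxcl12, Cxcl14, Xcl1, Ccl19, Ccl26 and Cxcl1. The split of chemokine calls was then 6 higher and 7 lower under median centring (64.0% and 9.71% of all genes), and 4 and 4 under each of the other scalings (29.5% and 12.2% of all genes under quantile normalization, 25.3% and 15.8% under cyclic loess).

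**Figure D1:**
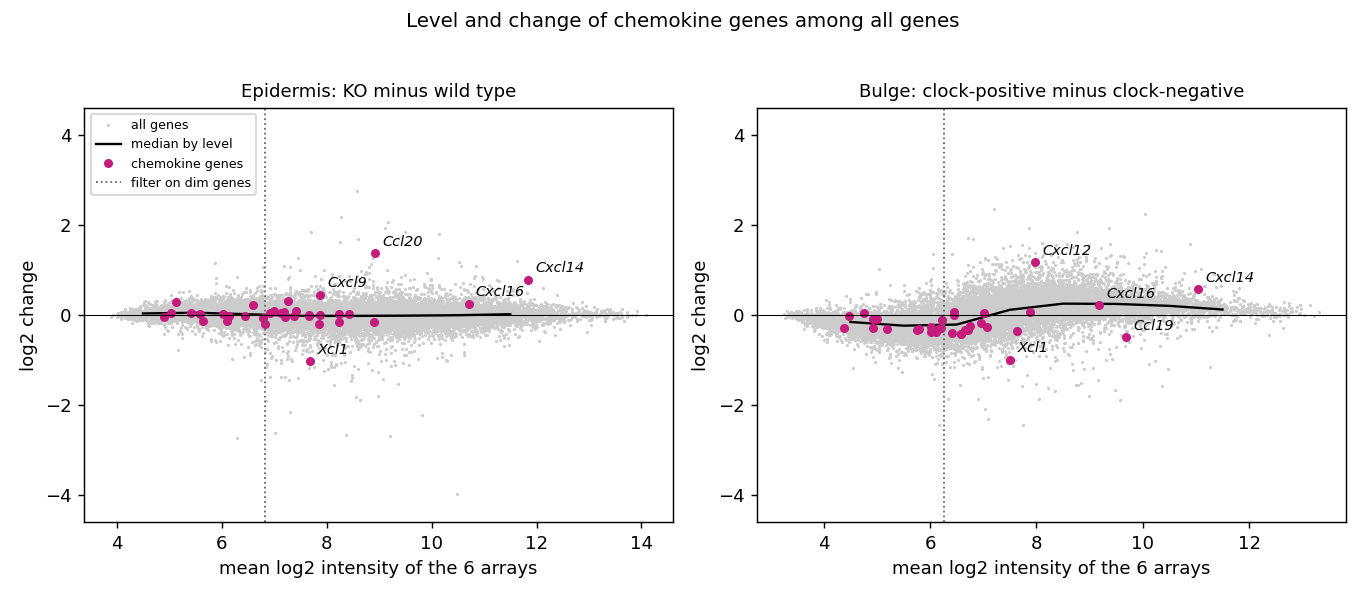
Log2 change (vertical axis) against the mean log2 intensity of the 6 arrays (horizontal axis) for all genes (grey) and the 34 chemokine genes (magenta), with the median change by level as a line and the filter on dim genes dotted. In the bulge the line runs from -0.21 for genes at 6 to 7 up to 0.25 for genes at 8 to 9, and most chemokine genes lie at the low end; in the epidermis the line stays near 0.

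Cxcl14 is a keratinocyte-made ligand, highly conserved, whose receptor is not settled. In the epidermis it read 12.31, 12.09 and 12.31 in the KO arrays (12.24 ± 0.13, SD, n = 3) and 11.29, 11.51 and 11.56 in wild type (11.45 ± 0.14). Every KO array lay above every wild-type array. The log2 difference was 0.78 ± 0.12 (SE), with an adjusted p of 0.0604. It passed the threshold after quantile normalization (0.75, adjusted p = 0.0373), where 0.351% of all genes passed, after cyclic loess (0.77, 0.0238), where 0.609% did, and without the wild-type array 1 (0.70, 0.0491), which had the lowest immune markers of the wild-type arrays. Over all alternatives the adjusted p ran from 4.02e-04 to 0.479. Of 8 basal keratinocyte markers 0 passed the limma threshold in the epidermis and 0 had an unadjusted p under 0.05, beside 0.193% and 7.96% of all genes. The mean levels of T cell and myeloid markers were higher in the wild-type arrays 2 and 3 than in the KO arrays. The part of cell content in the Cxcl14 result was not tested.

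Among bulge cells Cxcl14 read 11.29, 11.34 and 11.37 in the clock-positive arrays (11.33 ± 0.04) and 10.78, 10.77 and 10.72 in the clock-negative arrays (10.76 ± 0.03). Again no array of the lower group reached the higher group. It rose by 0.58 ± 0.06 (adjusted p = 4.30e-05), and by 0.43 to 0.72 under the rescalings. Of 7 bulge stem cell markers 7 rose with it, where 45.2% of all genes tested rose, and 7 were called higher under each of the 3 rescalings. Their mean level was 10.62 to 10.67 in clock-positive and 9.70 to 9.77 in clock-negative arrays, and their part in the result was not tested. Cxcl17, a mucosal ligand also without a single settled receptor, read 6.86, 6.96 and 7.0 in clock-positive and 7.01, 7.32 and 7.26 in clock-negative arrays. These groups were separated by 0.01 at their nearest. It fell by 0.26 ± 0.09 (adjusted p = 0.0218), a call lost under all 3 rescalings (adjusted p 0.0751 to 0.210), and in the epidermis its difference was 0.00 ± 0.12.

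The membrane-bound ligands are Cxcl16, which binds Cxcr6 on T cells, and Cx3cl1 (fractalkine), which binds Cx3cr1 on monocytes, microglia and T cells. Cxcl16 read 9.30, 9.22 and 9.32 in clock-positive against 9.19, 8.96 and 9.03 in clock-negative cells, a rise of 0.22 ± 0.07 (adjusted p = 0.0252). All clock-positive arrays lay above the others, but by as little as 0.03. This rise was below the median change of genes at its level (0.24), and became 0.017 after quantile normalization and -0.0096 after cyclic loess. For the epidermis Cxcl16 read 11.02, 10.78 and 10.69 in KO against 10.34, 10.64 and 10.76 in wild type, groups that overlapped, with a difference of 0.25 ± 0.15 (adjusted p = 0.799).

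Cx3cl1 had no call in either comparison at the deposited scaling. It read 7.89, 7.95 and 7.91 in clock-positive and 7.96, 7.79 and 7.80 in clock-negative cells, a difference of 0.07 ± 0.07 with the opposite sign after quantile normalization (-0.015) and after cyclic loess (-0.045). After median centring it was called higher in clock-positive cells, at 0.21 (adjusted p = 0.0246). In the epidermis it read 8.83, 9.17 and 8.48 in KO and 8.53, 9.04 and 9.41 in wild type. Its spread within groups (SD 0.35 and 0.44) exceeded the difference of -0.17 ± 0.25.

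**Figure D2:**
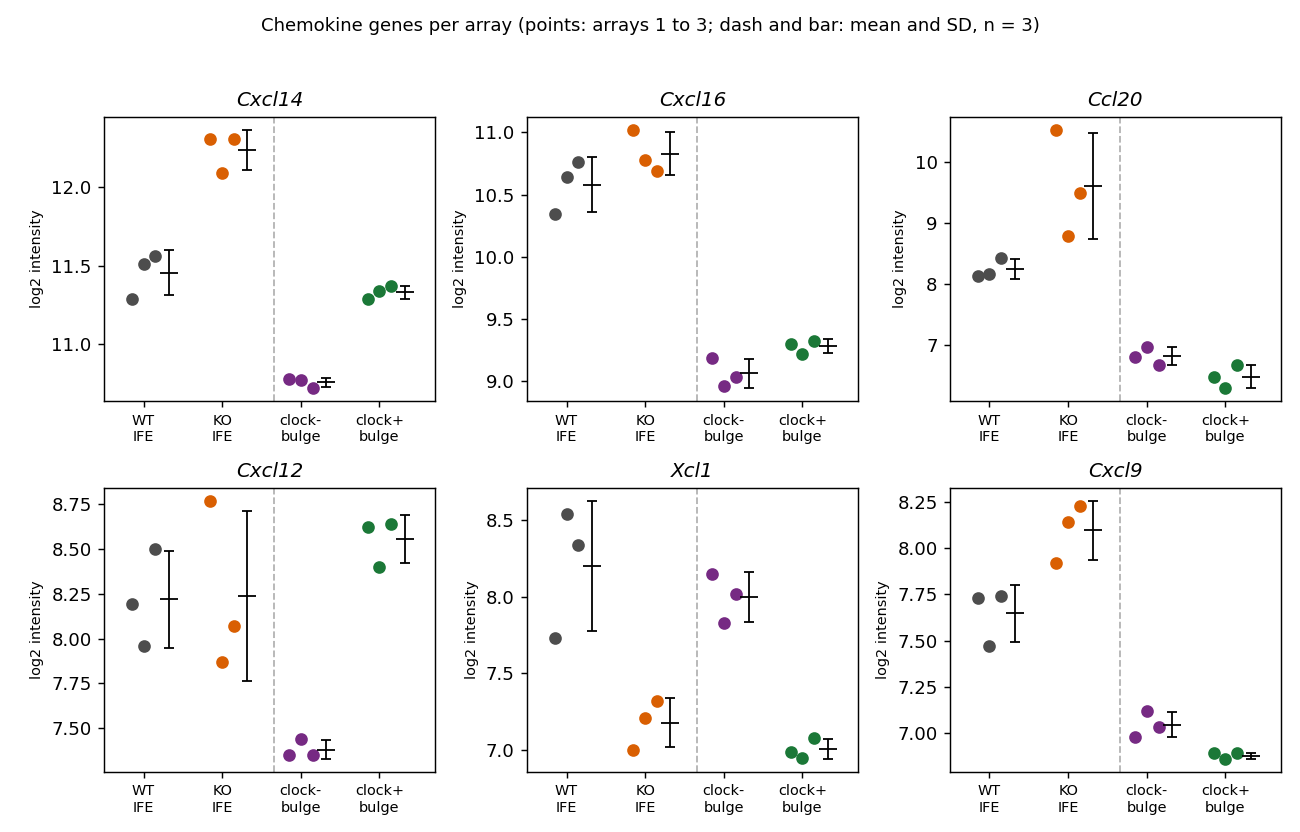
Log2 intensity of 6 chemokine genes in each array, with the mean and SD of each group (n = 3) beside the points; the dashed line parts the epidermis and bulge sets, which were scaled separately, so levels are compared only on either side of it. Cxcl14 is higher in KO than in wild-type arrays and higher in clock-positive than in clock-negative arrays, without overlap, Ccl20 spreads from 8.79 to 10.53 among the KO arrays, and Xcl1 is lower in KO and in clock-positive arrays.

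Ccl20 is the ligand of Ccr6 and draws dendritic cells and interleukin-17-producing T cells to epithelium. In the epidermis it read 10.53, 8.79 and 9.5 in the KO arrays (9.61 ± 0.87, SD) and 8.14, 8.16 and 8.43 in wild type (8.25 ± 0.16). The lowest KO array was 0.36 above the highest wild-type array, and the KO arrays differed among themselves by 1.74. The difference was 1.36 ± 0.37, or 2.57-fold, with an adjusted p of 0.301. Leaving out the KO array 1 gave 0.90 (adjusted p = 0.182) and leaving out the KO array 2 gave 1.77 (0.174). In the bulge set Ccl20 read 6.47, 6.30 and 6.68 in clock-positive and 6.81, 6.97 and 6.67 in clock-negative cells. Here the groups overlapped, although it fell by 0.33 ± 0.10 (adjusted p = 0.0167), and the call was lost under each of the 3 rescalings.

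The other skin-homing and epithelial CC ligands gave no call at the deposited scaling. Ccl28, which binds Ccr10 and is made by mucosal epithelium and keratinocytes, read 7.71, 7.54 and 7.72 in KO and 7.86, 7.61 and 7.59 in wild type. These groups overlapped, with a difference of -0.03 ± 0.12. Ccl25, the ligand of Ccr9, read 7.78, 7.83 and 7.63 in KO and 7.89, 8.08 and 7.89 in wild type, without overlap, and the difference was -0.21 ± 0.11 (adjusted p = 0.733). A second Ccl25 probe set, at means of 7.54 in KO and 7.49 in wild type, did not lie lower in KO. In bulge cells Ccl25 differed by 0.05 ± 0.07, and after median centring it was called higher, at 0.20 (adjusted p = 0.0394). Ccl17 and Ccl22, ligands of Ccr4, were dim in both sets.

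The interferon-induced ligands of Cxcr3, a receptor of activated T cells, are Cxcl9, Cxcl10 and Cxcl11. Cxcl9 read 7.92, 8.14 and 8.23 in the KO arrays and 7.73, 7.47 and 7.74 in wild type. Its KO arrays all lay above wild type, with a difference of 0.45 ± 0.13 (adjusted p = 0.327). Cxcl10 read 7.34, 7.54 and 7.36 against 7.06, 6.95 and 7.30, a difference of 0.31 ± 0.12 (adjusted p = 0.557). These groups were also apart, by 0.04 at the nearest arrays, and Cxcl11 was dim in both sets. With the limma spread estimated from all 12 arrays, Cxcl9 had an adjusted p of 0.0286 and Ccl20 of 0.0230, where 2.92% of all genes passed against 0.193% before. That spread includes the bulge arrays, so these p-values do not measure the spread among the epidermis pools alone. For Ccl20 the SD was 0.87 in KO, against 0.19 in clock-positive and 0.15 in clock-negative cells.

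The 9 interferon response genes tested in the epidermis did not move past the threshold: 0 passed with limma, 0 at an unadjusted p under 0.05, and their median was 0.14 (largest difference Oasl2, 0.42 ± 0.20). In bulge cells Cxcl9 read 6.89, 6.86 and 6.89 in clock-positive and 6.98, 7.12 and 7.03 in clock-negative arrays. It fell by 0.17 ± 0.06 (adjusted p = 0.0365), beside a median of -0.21 for genes at its level, and the call was lost under all 3 rescalings. Cxcl10 read 6.55, 6.31 and 6.55 against 6.45, 6.43 and 6.37, overlapping groups with a difference of 0.06 ± 0.08 and no call. It was called higher under all 3 rescalings, at 0.20 after median centring (adjusted p = 0.0425), 0.26 after quantile normalization (0.0255) and 0.26 after cyclic loess (0.0321). Interferon response genes there gave 1 rise (Irf9, 0.29 ± 0.07) and 3 falls (Oas1a, -0.58 ± 0.11; Rsad2, -0.39 ± 0.07; Ifit3, -0.38 ± 0.10) among 9 tested, where 45.2% of all genes rose and 18.3% fell. These counts were 4 and 3 under median centring, 0 and 1 under quantile normalization and 0 and 2 under cyclic loess.

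Neutrophil attractants with the ELR motif act through Cxcr2. Cxcl1 alone of the 5 passed the filter. It read 7.38, 7.52 and 7.44 in clock-positive and 7.81, 7.99 and 7.64 in clock-negative cells, without overlap. It fell by 0.37 ± 0.09 (adjusted p = 0.00469), and by 0.23 to 0.43 under the rescalings. In the epidermis Cxcl1 read 8.30, 8.46 and 8.55 in KO and 8.43, 8.37 and 8.45 in wild type, a difference of 0.02 ± 0.10 with the wild-type arrays inside the KO range. Of 8 neutrophil markers 3 were tested in the bulge set, and S100a9 (-0.33 ± 0.10, adjusted p = 0.0181) and Camp (-0.22 ± 0.07, 0.0222) fell. Of all genes tested 18.3% fell, and both calls were lost under all 3 rescalings. All genes at levels of 6 to 7 had a median change of -0.21, and those at 5 to 6 one of -0.24. The mean of the 8 markers was 5.74 to 5.80 in clock-positive and 5.94 to 6.05 in clock-negative arrays, and S100a8, Ly6g, Elane, Csf3r and Ngp were dim in both sets. The part of these markers in the Cxcl1 result was not tested.

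The attractants of monocytes and eosinophils lay near the filter. Ccl7, a monocyte attractant, read 6.10, 6.26 and 6.26 in clock-positive and 6.67, 6.71 and 6.47 in clock-negative cells and fell by 0.41 ± 0.08 (adjusted p = 0.00173). Ccl26, listed here with the eosinophil attractants, read 6.26, 6.45 and 6.38 against 6.68, 6.93 and 6.74 and fell by 0.42 ± 0.08 (0.00156). Ccl11 (eotaxin) read 6.50, 6.68 and 6.47 against 6.81, 6.95 and 6.86 and fell by 0.33 ± 0.07 (0.00381). Groups did not overlap in these 3 genes, nor in Ccl5 (RANTES), which attracts T cells and monocytes. Of all genes tested 19.1% were lower without overlap. These chemokine genes lay at levels of 6 to 7, where all genes had a median change of -0.21 and a lower quartile of -0.35. Ccl5 read 6.67, 6.63 and 6.55 in clock-positive and 6.84, 6.92 and 6.85 in clock-negative cells and fell by 0.25 ± 0.06 (adjusted p = 0.00627). Of these calls that of Ccl26 held under all 3 rescalings, at -0.28, -0.23 and -0.24. Ccl6 differed by -0.01 ± 0.06, with no call. Its sign turned under the rescalings, to 0.13 after median centring (adjusted p = 0.129), and it was called higher at 0.20 after quantile normalization (0.0324) and 0.19 after cyclic loess (0.0437).

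In the epidermis the tested members of these roles, Ccl2, Ccl7, Ccl5, Ccl9, Ccl11, Ccl24 and Ccl26, differed by -0.06 to 0.10, with standard errors of 0.11 to 0.18, and none reached an unadjusted p under 0.05. Ccl2, the main monocyte attractant and on the keratinocyte list, read 7.16, 6.99 and 7.33 in KO and 7.26, 6.96 and 7.12 in wild type, with overlap and a difference of 0.05 ± 0.13. In bulge cells it was dim.

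The lymphoid homeostatic ligands position lymphocytes and stem cells; Cxcl12 acts on Cxcr4, Ccl19 on Ccr7 and Cxcl13 on Cxcr5. Cxcl12 read 8.62, 8.40 and 8.64 in clock-positive cells (8.56 ± 0.13, SD) and 7.35, 7.44 and 7.35 in clock-negative cells (7.38 ± 0.05). The nearest arrays of the groups were 0.96 apart. It rose by 1.18 ± 0.08 (adjusted p = 1.70e-06) and by 1.05 to 1.32 under the rescalings, and by 1.13 to 1.25 when an array was left out. Cxcr4, its receptor, also rose, by 0.75 ± 0.09 (adjusted p = 8.24e-05). Of 8 endothelial markers 7 rose in the same arrays, where 45.2% of all genes tested rose and 18.3% fell. Under median centring 7 were called higher, under quantile normalization 6 and under cyclic loess 5. Their mean level was 8.30 to 8.32 in clock-positive and 7.96 to 7.99 in clock-negative arrays, and genes between 8 and 9 had a median change of 0.25. The 8 fibroblast markers read 7.0 to 7.03 against 6.93 to 7.04, with 2 higher (Fbln1, 0.80 ± 0.06; Col1a1, 0.36 ± 0.06) and 3 lower, and Lum and Dcn were dim. The 7 bulge stem cell markers also rose in these arrays, with a median change of 0.83, beside 0.35 for the endothelial markers. All 7 were called higher under each of the 3 rescalings. The part of any of these markers in the Cxcl12 result was not tested. In bulk samples fewer cells of a type and less RNA per cell cannot be told apart.

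No such difference was seen for Cxcl12 in the epidermis, where it read 8.77, 7.87 and 8.07 in KO and 8.19, 7.96 and 8.50 in wild type. The KO array 1 was the highest of the 6 and the KO array 2 the lowest, and the difference was 0.02 ± 0.24. Without the KO array 1 it was -0.25. Endothelial markers were low there, with Cdh5, Emcn, Kdr and Tek dim, and Cxcr4 differed by -0.27 ± 0.14 (adjusted p = 0.717).

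Ccl19 was measured by 5 probe sets, which may share sequence with near-identical gene copies, so its values are uncertain. The probe set used read 9.5, 9.63 and 9.22 in clock-positive and 9.79, 10.04 and 9.97 in clock-negative cells, without overlap. It fell by 0.49 ± 0.10 (adjusted p = 0.00271), and all 4 probe sets with bulge values had a lower mean in clock-positive cells (7.18 against 8.23, 7.93 against 8.37 and 6.75 against 7.22 for the other 3). In the epidermis it read 7.93, 8.20 and 8.33 in KO and 8.29, 8.19 and 8.44 in wild type, with overlap and a difference of -0.15 ± 0.13. Ccr7, its receptor on T cells and mature dendritic cells, fell by 0.54 ± 0.09 in clock-positive bulge cells.

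Xcl1 (lymphotactin), made by activated T cells and NK cells, binds Xcr1 on cross-presenting dendritic cells. Among bulge cells it read 6.99, 6.95 and 7.08 in clock-positive arrays (7.01 ± 0.06, SD) and 8.15, 7.83 and 8.02 in clock-negative arrays (8.0 ± 0.16). The clock-negative arrays were all higher, and it fell by 0.99 ± 0.08 (adjusted p = 1.15e-05) in clock-positive cells, and by 0.85 to 1.02 under the rescalings. T cell markers moved with it. Their mean was 6.90 to 6.93 in clock-positive and 7.76 to 7.90 in clock-negative arrays. Of 8 tested 8 were called lower, where 18.3% of all genes tested were. The smallest p were those of Cd3g (-1.69 ± 0.10), Cd7 (-1.56 ± 0.09), Cd3e (-1.18 ± 0.06) and Cd3d (-1.16 ± 0.07). Under median centring 7 were called lower, and 8 under each of the other rescalings. Trat1 was dim. Ccl1, the other ligand made by T cells, read 6.30, 6.27 and 6.54 against 6.61, 6.87 and 6.90 and fell by 0.43 ± 0.10 (adjusted p = 0.00345), without overlap, a call lost under quantile normalization (0.0717) and cyclic loess (0.0513).

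In the epidermis Xcl1 read 7.0, 7.21 and 7.32 in the KO arrays (7.18 ± 0.16) and 7.73, 8.54 and 8.34 in wild type (8.20 ± 0.42). All KO arrays lay below wild type, and the wild-type array 1, lowest in T cell markers, was also lowest in Xcl1. The difference was -1.02 ± 0.21, or 2.03-fold, with an adjusted p of 0.146. Without the wild-type array 1 it was -1.26 with an adjusted p of 0.00729, and over all alternatives the adjusted p ran from 0.00407 to 0.437. Of the T cell markers, Cd3g differed by -2.66 ± 0.42 (adjusted p = 0.0662), Cd3e by -1.33 ± 0.29 and Ptprc by -0.98 ± 0.21. Thy1, also part of the mean of 9 markers, went the other way and rose by 1.19 ± 0.12 (adjusted p = 0.0155). It was the only 1 of 6 tested markers past the threshold, where 0.193% of all genes passed. Cd3d, Cd2 and Trat1 were dim. The part of T cell content in the Xcl1 values was not tested, in either set. Ccl1 differed by 0.07 ± 0.09.

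**Figure D3:**
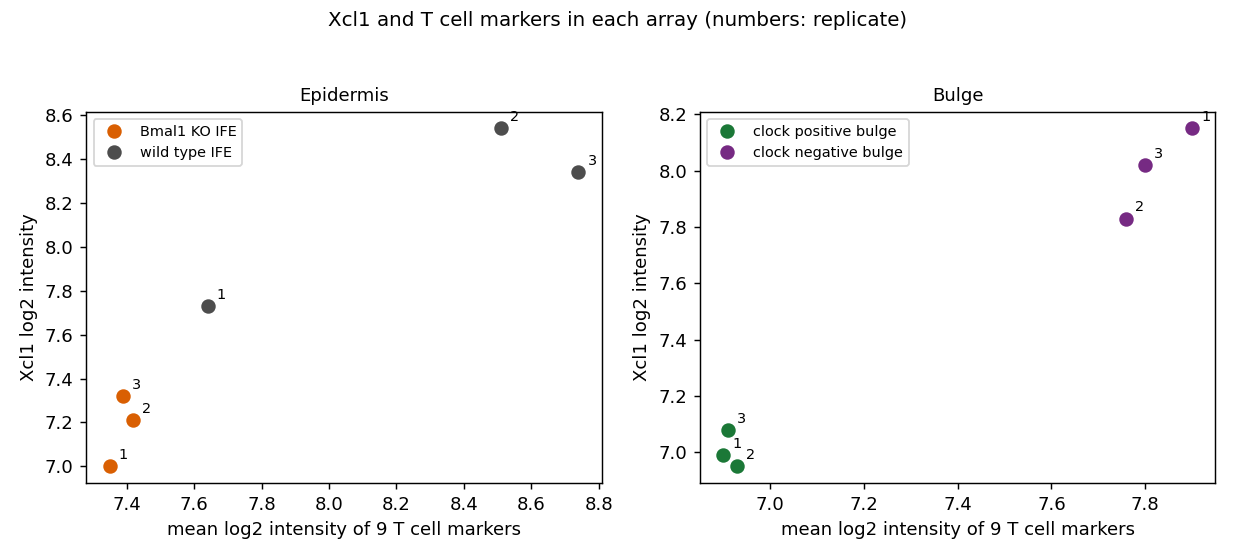
Xcl1 log2 intensity (vertical axis) against the mean log2 intensity of 9 T cell markers (horizontal axis) in each of the 6 epidermis arrays and the 6 bulge arrays, numbered by replicate. The arrays with higher T cell markers, which are wild type in the epidermis and clock-negative in the bulge, are those with higher Xcl1, and the wild-type array 1 lies between its group and the KO arrays.

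Receptors and signalling genes were read from lists. Of the 19 chemokine receptors on the array 9 were tested in the bulge set, and 2 rose and 7 fell in clock-positive cells, where 45.2% of all genes rose and 18.3% fell. The counts were 2 and 5 under median centring, 1 and 4 under quantile normalization and 1 and 5 under cyclic loess. Those with the smallest p were Cxcr4 (0.75), Cxcr6 (-0.52 ± 0.07), which is carried by T cells and binds Cxcl16, Cx3cr1 (-0.59 ± 0.08) and Ccr7 (-0.54). The median change of the 9 receptors was -0.40, beside -0.21 for all genes at levels of 6 to 7 and 0.11 for those at 7 to 8. In the same arrays 8 of 8 T cell markers tested fell, while of 10 myeloid markers tested 6 fell and 3 rose. The part of these markers in the receptor results was not tested. In the epidermis 0 of 9 receptors passed with limma and 1 had an unadjusted p under 0.05, Cxcr6 (-0.57 ± 0.11, adjusted p = 0.136). The shares of all genes there were 0.193% and 7.96%. The atypical receptors take up chemokines without signalling movement. Ackr4 rose (0.22 ± 0.06) and Ackr2 fell (-0.18 ± 0.07) in clock-positive bulge cells, of 5 tested. The counts higher and lower were 1 and 0 under median centring, 1 and 1 under quantile normalization and 1 and 2 under cyclic loess. Ackr2, a scavenger of inflammatory CC chemokines, read 9.07 ± 0.17 (SD) in KO and 9.96 ± 0.24 in wild-type epidermis, a difference of -0.89 ± 0.15 (adjusted p = 0.0739; 0 of 4 passed and 1 had an unadjusted p under 0.05). Of these 4, 1 was called lower in KO after quantile normalization, where 0.186% of all genes were, and 1 after cyclic loess, where 0.294% were.

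Genes that act before the inducible chemokines gave no call in the epidermis. Of the NF-kB pathway and feedback genes 0 of 14 passed, with 0 at an unadjusted p under 0.05, and Nfkbia, a feedback inhibitor, differed by -0.30 ± 0.15 and Nfkb2 by 0.31 ± 0.17. Of the cytokines and receptors that induce keratinocyte chemokines 0 of 12 passed, again with 0 at an unadjusted p under 0.05. The shares of all genes there were 0.193% and 7.96%. In bulge cells 2 NF-kB genes rose (Nfkbib, 0.46 ± 0.06; Rela, 0.38 ± 0.06) and Nfkbiz fell (-0.29 ± 0.06) among 14, beside the 45.2% and 18.3% of all genes that rose and fell. Under median centring 8 rose and 0 fell, under quantile normalization 4 and 2, and under cyclic loess 2 and 2. Of the 11 inducing cytokines and receptors tested there 5 rose, among them Tnfrsf1a (0.38 ± 0.06), Myd88 (0.36 ± 0.09) and Il17ra (0.30 ± 0.07), and Il1b fell (-0.39 ± 0.09). These counts were 7 and 1 under median centring and 4 and 2 under each of the other rescalings. The platelet chemokines Pf4 and Ppbp, which have other symbols, were dim in both sets.

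**Figure D4:**
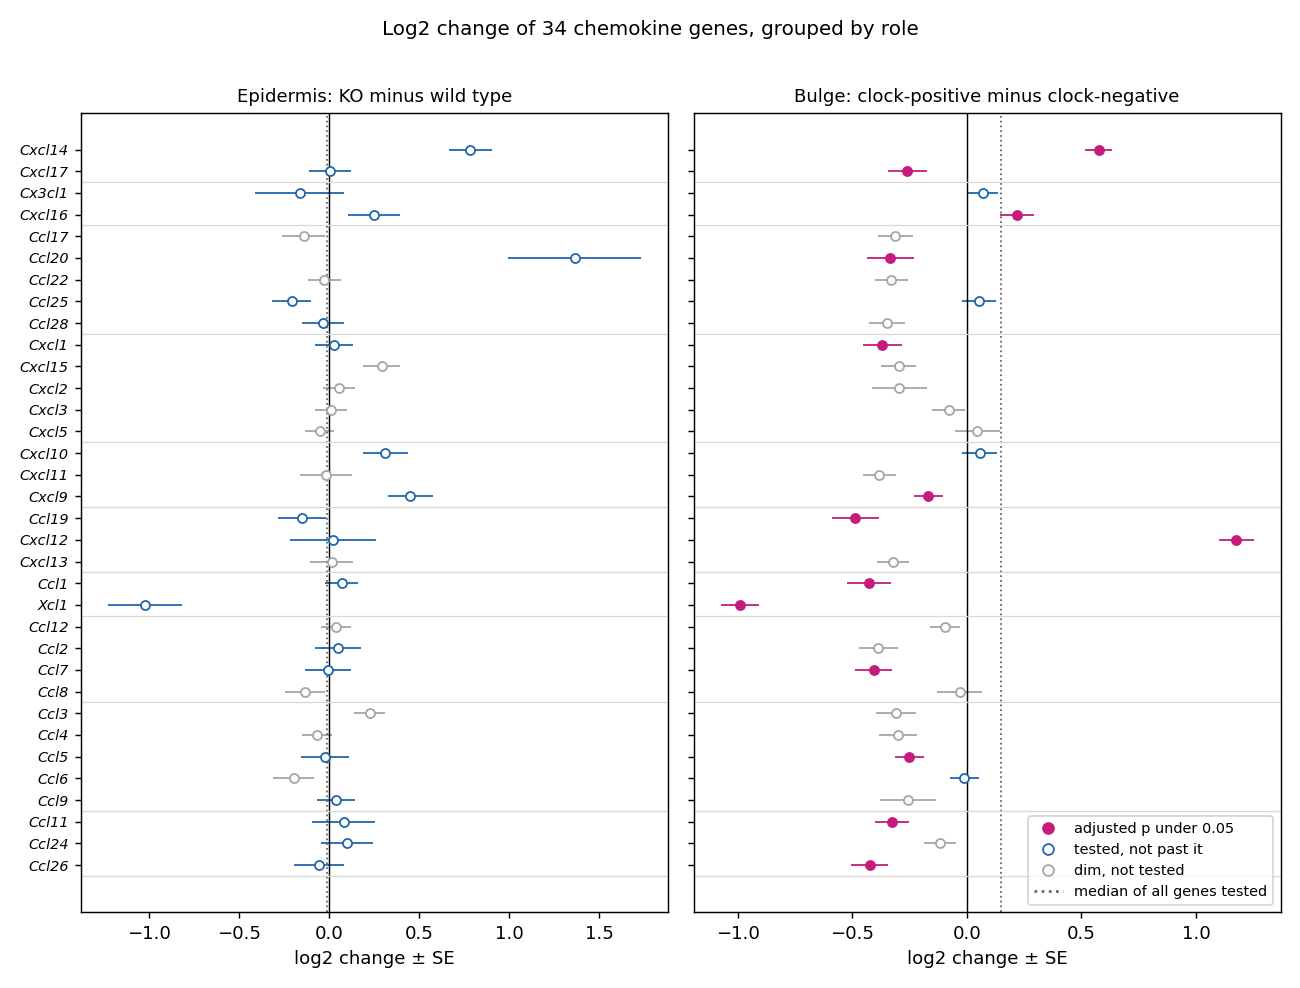
Log2 change with its SE for all 34 chemokine genes, grouped by role, in the epidermis (KO minus wild type) and the bulge (clock-positive minus clock-negative); filled points passed an adjusted p under 0.05, open blue points did not, grey points were dim and not tested, and the dotted line is the median of all genes tested. Filled points are seen in the bulge panel for 14 genes and for none in the epidermis panel.

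Chemokine genes lie in clusters on the genome, and neighbours were described together by gene order. The cluster of Ccl2, Ccl7, Ccl11, Ccl12, Ccl8 and Ccl1 had changes of -0.43 to -0.03 in the bulge set, with a median of -0.36, and of -0.14 to 0.08 in the epidermis. The 5 genes from Ccl5 to Ccl4 had changes of -0.31 to -0.01 in the bulge and of -0.20 to 0.22 in the epidermis. The adjacent Cxcl9 and Cxcl10 differed by 0.45 and 0.31 in the epidermis and by -0.17 and 0.06 in the bulge. Dim genes are included in these ranges, which were not tested. All of these genes had mean levels below 7 in the bulge set. There the median change of all genes was -0.16 at levels below 5, -0.24 at 5 to 6 and -0.21 at 6 to 7.

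Whether the contrasts differ was tested with all 12 arrays, as the change towards clock-positive cells less the change from KO towards wild type. Of the 17 chemokine genes tested 4 passed, against 16.7% of all 13100 genes. Cxcl14 had a difference of 1.36 ± 0.13 (adjusted p = 5.08e-05), since it was higher in clock-positive cells and lower in wild type than in KO. Xcl1 had -2.02 ± 0.23 (1.33e-04), being lower in clock-positive cells and higher in wild type than in KO. Cxcl12 had 1.20 ± 0.27 (0.00946), from the bulge rise. Ccl19 had -0.64 ± 0.18 (0.0287), a call lost under median centring (0.0513) and without any of 6 arrays: clock-positive 1 or 3, clock-negative 2 or 3, or KO 1 or 2. Ccl20 had 1.03 ± 0.41 (0.0898). Cxcl10 did not pass, but did under each of the 3 rescalings (0.50 to 0.59, adjusted p 0.0149 to 0.0393). The count was 7 without the wild-type array 3, where 22.9% of all genes passed, and 8 without the KO array 3, where 30.2% did. Age, skin region, pool size and scaling differ between the sets as well, and cannot be told apart from the contrast.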

How the data were processed

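Labelled RNA of 12 pools of sorted cells was hybridised to Affymetrix mouse arrays. Per the submitters' processing notes the authors used RMA, of a version not given in the sources used here, to make the deposited log2 intensities. Before labelling, the RNA was amplified by a whole transcriptome method, per the labels' protocols. Bulge columns hold 34760 values and epidermis columns 28853, so the sets appear to have been scaled separately, and no level of a set was tested against the other. Arrays have no read depth: their number limits the precision. Nothing states that pools were drawn independently, so p-values measure the spread between these pools.

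Probe sets were joined to genes by the symbols of the platform table, and 39 of 39 chemokine probe sets matched RefSeq by identifier. For a gene with several probe sets, a probe set with values on all 12 arrays came before the others, and the brightest of those was taken. Members, lists and tests were chosen with earlier results of these data known. After the lowest 30% of genes were left out, limma 3.58.1 (R 4.3.3; lmFit and eBayes without trend) was fitted to each set's 6 arrays, and to all 12 for the difference, two-sided, with Benjamini-Hochberg adjustment over all genes tested and a threshold of 0.05. The fits were first tested on simulated data. Values after ± are standard errors unless marked SD.

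Values per array are given for members past the threshold and for tested members of the keratinocyte list. Of other lists up to 4 genes by smallest p are named. Xcl1, Ccl19, Ccl25 and Cxcl12 in the epidermis, Bmal1 itself, and Nr1d1, Per3 and Cry1 in the bulge were added. Alternatives were median centring, quantile normalization, cyclic loess, no filter or a filter of 50%, all probe sets or their mean, eBayes with trend, a replicate block, the spread of all 12 arrays, and each array left out. Deviations of same-numbered arrays had correlations of 0.24, 0.26 and -0.06 in the bulge and of -0.44, 0.04 and -0.52 in the epidermis. They were not positive for every number in either set, and numbers were not taken as pairs. Promoter windows were searched in Python 3.11.15.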

Additional observations from a re-analysis of the deposited data

Results flagged for a closer look

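The change towards clock-positive bulge cells differed from the change from KO towards wild-type epidermis in 4 chemokine genes, by limma's test of the difference over all 12 arrays. Cxcl14 had a difference of 1.36 ± 0.13 (SE; adjusted p = 5.08e-05), with all 3 clock-positive arrays above all clock-negative arrays and all 3 wild-type arrays below all KO arrays. Xcl1 had a difference of -2.02 ± 0.23 (1.33e-04), lower in 3 of 3 clock-positive arrays and higher in 3 of 3 wild-type arrays. Cxcl12 had a difference of 1.20 ± 0.27 (0.00946), with groups that overlapped in the epidermis. Ccl19 had a difference of -0.64 ± 0.18 (0.0287), also with overlap in the epidermis. The 16.7% of all genes that passed the same test stand beside these 4 of 17.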

How the results depend on the processing

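In the bulge 14 chemokine genes were called, where 63.5% of all genes tested were. The count was 8 after quantile normalization (41.6% of all genes) and 8 after cyclic loess (41.1%), in each case with 6 of the 14 among them. It was 8 with the spread of all 12 arrays (38% of all genes), all 8 among the 14. It was 23 with no filter on dim genes (59.4% of all genes) and 6 when 50% of genes were set aside as dim (67.1%). Counts ran from 10 to 14 when an array was left out, where 51.1% to 70.3% of all genes passed. In the epidermis the count of 0 (0.193% of all genes) became 1 after quantile normalization, cyclic loess, the 50% filter or eBayes with trend, Cxcl14 each time. The shares of all genes were then 0.351%, 0.609%, 0.471% and 0.408%. The count was 4 with the spread of all 12 arrays, where 2.92% of all genes passed. It ran from 0 to 2 when an array was left out, where 0.0502% to 0.702% of all genes passed. For the difference, counts ran from 3 to 8 when an array was left out, where 8% to 30.2% of all genes passed. With the replicate block the counts were 14, 0 and 3 (67%, 0.0215% and 4.33% of all genes). The block ended the limma call of Ccl19 in the difference (adjusted p = 0.0736). The cause of these shifts was not tested, beyond the smaller or larger number of genes tested under the filters.

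Signs turned in results without a call at the deposited scaling, except Cxcl16. For the bulge, Cx3cl1 was -0.015 after quantile normalization and -0.045 after cyclic loess, Cxcl16 -0.0096 after cyclic loess, and Ccl6 0.13 after median centring, 0.20 after quantile normalization and 0.19 after cyclic loess, the last 2 with a call. For the epidermis, Cxcl17 was -0.0065 after median centring, Cxcl12 -0.011 after quantile normalization and Ccl7 0.021 after cyclic loess; Cx3cl1 in the difference was 0.035 after median centring. With an array left out, bulge changes ran from -0.041 to 0.030 for Ccl6 and -0.013 to 0.11 for Ccl25, and epidermis changes ran from -0.068 to 0.23 for Ccl11, -0.035 to 0.13 for Ccl2, -0.14 to 0.064 for Ccl26, -0.082 to 0.055 for Ccl28, -0.13 to 0.096 for Ccl5, -0.10 to 0.079 for Ccl7, -0.40 to 0.041 for Cx3cl1, -0.034 to 0.091 for Cxcl1, -0.25 to 0.20 for Cxcl12 and -0.083 to 0.092 for Cxcl17, and the difference of Cx3cl1 from -0.33 to 0.11. Of the other gene-level results under alternatives, 781 kept their direction and side of the threshold, 48 lost the call and 33 gained it. The 16 chemokine genes dim in the bulge and the 13 dim in the epidermis were not tested.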
